A study of Mus musculus with 24 samples.

Results

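In mouse embryonic stem cells without Tet2, 409 windows of 100 bp gave more 5-methylcytosine (5mC) signal than in wild-type cells. They were dense in CpG sites and already held some reads in wild-type libraries. The windows were chosen by their values. Each was a row of the deposited comparison of Tet2 knockout (KO) with wild-type (WT) cells and held at least 6 CpG sites. At least 1 of the 3 WT libraries had more than 3 reads in it, the 3 WT libraries together had fewer than 600, and its mean signal was higher in Tet2 KO. They lay on 16 chromosomes, numbers 2 to 11, 13, 14 and 16 to 19. They were 409 of 14279 listed windows, of which 2414 were higher and 11865 lower in Tet2 KO, and these were 0.0568 percent and 0.279 percent of the 4252847 windows that had been tested. Because the rule used the Tet2 KO and WT libraries themselves, every value of that comparison below is a description without a test.

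The series measured 5mC by methylated DNA immunoprecipitation and sequencing (MeDIP-seq) in mES cells, in 24 libraries of 8 groups of 3. The groups used for the windows were immunoprecipitates (IP) of WT cells and of Tet2 KO cells, both transfected with a control small interfering RNA (siNC). For comparison, the IP of Tet2 KO cells transfected with siNsun2, which targets the RNA methyltransferase Nsun2, was used. The IP and input libraries of a separate experiment on WT and Pspc1 KO cells were used as well. Of the IP of WT cells transfected with siNsun2, only the positions of its listed windows were used. WT and Tet2 KO lines came from another laboratory and were grown in serum with LIF, CHIR99021 and PD0325901, after passages on gelatin to remove feeder cells. The tables hold no RNA values, so the cell type was not checked against its markers. The study calls the replicates of its genome-wide data biological. Neither it nor the labels say whether the 3 libraries of a group came from separate cultures, so every spread and p-value measures the spread between these libraries only.

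In units of 1000000 reads, the library totals were 11.5 to 15.4 for WT with siNC and 8.92 to 14.2 for Tet2 KO with siNC. Over 5 listed windows in Tet2 itself, at chr3:133487401-133487900, the 3 WT libraries held 62, 83 and 78 reads and the 3 Tet2 KO libraries 0 each, which is a check of the labels. Over all listed windows replicates 2 and 3 differed by no more than sampling noise in both groups, with a chi-square per window of 1.00 in WT and 0.969 in Tet2 KO against 1.26 to 1.51 for the other pairs. Over the 409 windows alone, the same pair was at 0.851 in WT, against 0.955 and 1.25, and at 1.02 in Tet2 KO, against 1.01 and 0.999, so there the Tet2 KO pairs did not stand apart. Replicates 2 and 3 were counted as 1 sample, and means with SD have n = 2. No input library of these 2 groups was analysed here, so a gain of 5mC and a gain of DNA copies in Tet2 KO cells cannot be told apart. In the same way, more cells carrying 5mC and more methylated sites in each cell cannot be told apart.

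In mammals 5mC sits mostly at CpG sites, where it is placed by DNA methyltransferases and copied at each replication. TET2 is a dioxygenase that oxidises 5mC to 5-hydroxymethylcytosine and further forms, a route to the loss of the mark. CpG-dense sequence is found at CpG islands of gene starts, which are mostly unmethylated, and in young LTR retrotransposons, which are normally methylated. An LTR retrotransposon copies its RNA into DNA from a host tRNA that pairs with its primer-binding site, just inside the left LTR, and the tRNA used is a family trait. Intracisternal A-particle elements, for example, use tRNA-Phe.

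The windows are first shown as sequence, because most of them turned out to be copies of a few sequences. By alignment of the windows to each other, 326 of 409 fell into 9 groups of related sequence, numbered 1 to 9, and 83 had no relative among them. Group 2 was the most numerous, with 168 windows (41.1%), followed by group 1 with 109 (26.7%). In all printed sequences, from the plus strand of GRCm38 (mm10), capitals mark the CpG sites. The first 3 are windows of group 2 and group 1, shown because those groups make up most of the windows.
Group 2, intergenic, chr11:88895801-88896000: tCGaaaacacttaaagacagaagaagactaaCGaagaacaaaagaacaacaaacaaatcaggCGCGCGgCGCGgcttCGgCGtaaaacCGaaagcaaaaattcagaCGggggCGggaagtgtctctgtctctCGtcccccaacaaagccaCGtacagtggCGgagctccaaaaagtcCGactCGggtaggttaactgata
Group 1, intergenic, chr8:15573601-15573700: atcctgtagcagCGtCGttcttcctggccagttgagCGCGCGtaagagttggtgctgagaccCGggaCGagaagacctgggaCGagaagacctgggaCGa
Group 1, Gm10033, chr8:69382201-69382300: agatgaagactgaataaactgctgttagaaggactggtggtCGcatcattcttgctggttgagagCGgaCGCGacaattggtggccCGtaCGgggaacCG

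The next 10 lie outside the groups. They are shown because they include windows near annotated starts and single-copy windows of large change, and because they differ in kind. The Foxm1 and Sh3rf1 windows hold runs of CG and TG, the Son window a coding repeat, and the others have no such simple run over their whole length.
Intergenic, single copy, chr6:143107401-143107600: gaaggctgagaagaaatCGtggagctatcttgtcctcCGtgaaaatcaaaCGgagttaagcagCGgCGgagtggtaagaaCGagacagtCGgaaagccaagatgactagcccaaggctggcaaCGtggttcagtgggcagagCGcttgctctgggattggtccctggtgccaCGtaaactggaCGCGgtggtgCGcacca
Klf3 coding exon, chr5:64822201-64822300: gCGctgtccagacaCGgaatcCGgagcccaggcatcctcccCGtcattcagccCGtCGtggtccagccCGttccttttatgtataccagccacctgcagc
Zfp42 coding exon, chr8:43295701-43295900: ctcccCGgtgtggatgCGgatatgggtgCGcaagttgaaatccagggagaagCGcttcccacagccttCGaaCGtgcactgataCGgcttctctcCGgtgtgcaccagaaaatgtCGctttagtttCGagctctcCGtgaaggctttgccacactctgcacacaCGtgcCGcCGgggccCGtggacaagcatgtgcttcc
Son coding exon, chr16:91660301-91660400: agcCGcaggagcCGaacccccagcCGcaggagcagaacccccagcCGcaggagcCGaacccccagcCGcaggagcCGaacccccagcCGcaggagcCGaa
Foxm1 intron, chr6:128369901-128370000: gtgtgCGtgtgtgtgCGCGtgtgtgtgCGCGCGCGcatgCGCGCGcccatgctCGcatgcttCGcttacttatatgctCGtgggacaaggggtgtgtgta
Sh3rf1 intron, chr8:61243101-61243200: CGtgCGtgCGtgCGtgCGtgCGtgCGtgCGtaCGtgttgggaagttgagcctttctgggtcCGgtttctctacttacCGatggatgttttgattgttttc
Ankrd37 intron, chr8:46000201-46000300: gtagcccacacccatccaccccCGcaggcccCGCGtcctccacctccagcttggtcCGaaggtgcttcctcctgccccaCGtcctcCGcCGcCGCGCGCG
Atf7ip start, chr6:136519001-136519200: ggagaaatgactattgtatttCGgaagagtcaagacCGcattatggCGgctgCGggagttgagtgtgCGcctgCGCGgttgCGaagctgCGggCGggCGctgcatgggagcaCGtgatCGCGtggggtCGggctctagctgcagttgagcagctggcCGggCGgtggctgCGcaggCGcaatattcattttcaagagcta
Zfp791 and Gm23388, chr8:85112001-85112100: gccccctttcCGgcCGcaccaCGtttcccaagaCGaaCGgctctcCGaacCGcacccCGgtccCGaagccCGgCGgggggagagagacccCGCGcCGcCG
Catsperg1 intron, chr7:29212901-29213000: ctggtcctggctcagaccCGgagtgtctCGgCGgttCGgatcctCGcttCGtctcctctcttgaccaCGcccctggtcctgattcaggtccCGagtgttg

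Across the 409 windows, the signal in RPKM, the read count scaled to library total and window length, went from a median of 23.4 (range 1.16 to 147) in WT to 65.5 (11.4 to 219) in Tet2 KO. The medians of the single libraries were 22.6, 22.6 and 23.5 in WT and 66.1, 64.7 and 62.8 in Tet2 KO. The 3 Tet2 KO libraries lay above all 3 WT libraries at each of the 409 windows, as they did at each of the 2414 listed higher windows, so this is a property of the listing. The median log2 fold change was 1.39 (quartiles 1.05 and 2.13, SD over Tet2 KO samples 0.06, n = 2), on the scale of log2(RPKM + 0.1). It was 3.29 with TMM library factors taken over the listed windows, so its size depends on the scaling. With library totals it was 2.25 over all 2414 higher windows, and 2.01 over the 877 windows that met the rule except that they held fewer than 6 CpG sites. The authors' relative methylation score, in which the signal is corrected for CpG density, was also higher in all 409 windows, with ranges that did not overlap in 372 (90.95%). The same share was 87.4% of all 2414 higher windows and 90.9% of the 877 CpG-poor ones. The median score of the 409 went from 0.383 to 0.467.

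The fold change was largest where WT signal was lowest. The 75 windows with under 5 RPKM in WT had medians of 3.03 in WT and 21.2 in Tet2 KO, a difference of 18.1 RPKM and a log2 fold change of 3.05. The 74 windows at 50 RPKM or more went from 61.1 to 121, a larger difference of 56.3 RPKM but a smaller log2 fold change of 0.91. The order of the folds is partly set by the listing, since a window with few reads is listed only at a large fold. In 67 of the 409 windows at least 1 WT library had 3 reads or fewer, so the evidence of 5mC in WT rested on few reads there. Input libraries of the Pspc1 experiment, given for 2 of the 409 windows, held 0.00 to 4.63 RPKM. WT signal under 5 RPKM therefore cannot be told from coverage without the antibody.

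**Figure D1:**
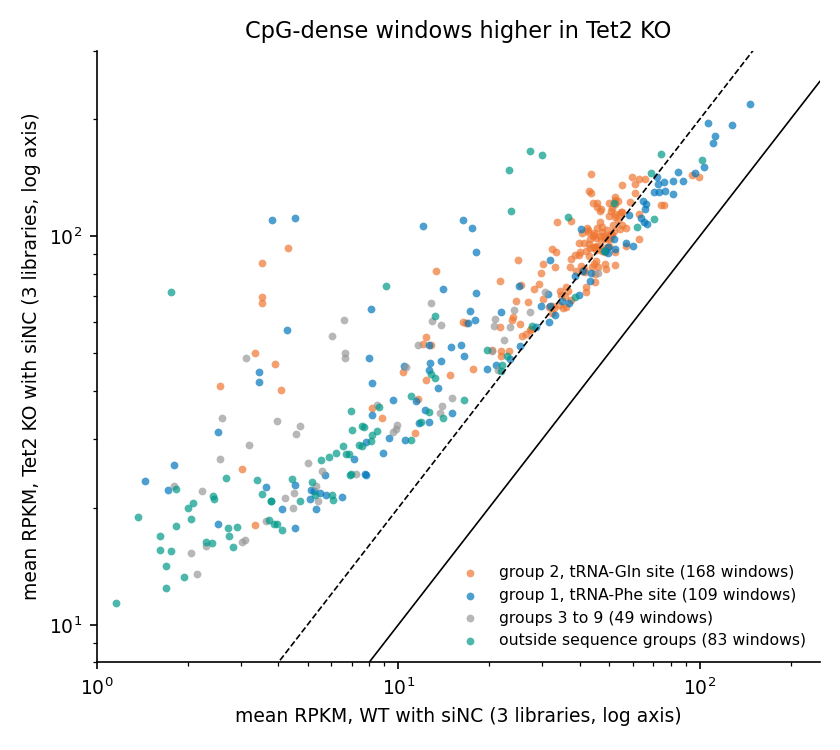
Mean RPKM of each of the 409 windows in WT (horizontal) and Tet2 KO (vertical), both with siNC, 3 libraries each, on log axes; colours give the sequence groups, the solid line equal signal and the dashed line a doubling. Every point lies above the solid line, and the points approach it as WT signal rises toward the highest mean of 147 RPKM.

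The limits of the rule cut through a continuous range. Windows with 5 CpG sites that met the rest of the rule numbered 148 and went from a median of 9.94 to 35.3 RPKM, while the 97 with 6 went from 13.5 to 52.8. The 84 CpG-dense windows whose highest WT count was 1 to 3 had medians of 0.755 and 14.6 RPKM, against 2.43 and 20.3 for the 50 at 4 to 6. At the upper limit, the highest summed WT count inside was 591 and the lowest outside 610. Windows summing 600 to 1200 reads in WT numbered 3 and went from 165 to 259 RPKM.

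Group 2 held 84 separate regions at 34 loci on 12 chromosomes, where windows up to 2 kb apart were joined into a locus. Their alignments had a median identity of 99.6%, and the middle 32 bases of a window occurred at a median of 34.5 places in the genome. In 27 of the 34 loci an 18-base primer-binding site for tRNA-Gln was found without a mismatch, in 1 form at 15 loci and in another at 12. No repeat annotation was used, so the elements are called here by their sites. Summed over the group, in reads per 1000000 reads of the library (RPM), the libraries held 699, 630 and 636 in WT and 1543, 1458 and 1443 in Tet2 KO. All Tet2 KO libraries were far above the WT libraries, with means of 666 ± 46.7 and 1497 ± 65.4 (SD, n = 2) and a ratio of 2.25. Copies of a repeat share reads, so its windows are not independent measurements.

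All 12 regions with at least 5 windows belonged to group 2. The 8 with the most windows were named, and 2 of the 6 that tied at 5 windows were taken for the higher mean RPKM in Tet2 KO. The longest, chr11:88895801-88896500, spanned 7 windows with 56 CpG sites and lay between genes. Its mean RPKM was 33.95, 29.6 and 24.6 in WT and 75.9, 69.9 and 70.04 in Tet2 KO, so that the groups did not overlap (log2 fold change 1.29). The region in an intron of the non-coding gene 4930578N18Rik, chr16:76142901-76143500, was at 46.8, 42.7 and 45.5 in WT and at 115, 125 and 104 in Tet2 KO (log2 fold change 1.35). The other 6 of the 8 had log2 fold changes of 0.98 to 1.18, while over all 12 the range was 0.98 to 4.14. Among them, one lay in an intron of Pik3c2a, a phosphoinositide 3-kinase (1.02), and one in an intron of Ppat, an enzyme of purine synthesis (1.07).

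Within group 2 the signal differed by position in the element. Of the 157 windows at loci with a site, 101 lay 0 to 500 bp downstream of it in the sense of the element. Median RPKM was 34.3 in WT and 69.1 in Tet2 KO in the first 100 bp downstream, and was 52.5 and 105 at 300 to 400 bp. None of these windows lay at 500 to 700 bp. Only listed windows that met the rule were counted, so sequence there may have failed it. The places also hold different sets of loci. A second block began at 700 bp, with 50.6 and 116, and fell to 23.7 and 55.7 in the 100 bp after 1000 bp. The log2 fold change varied less, from a median of 0.92 just upstream of the site to 1.29 after 1000 bp.

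**Figure D2:**
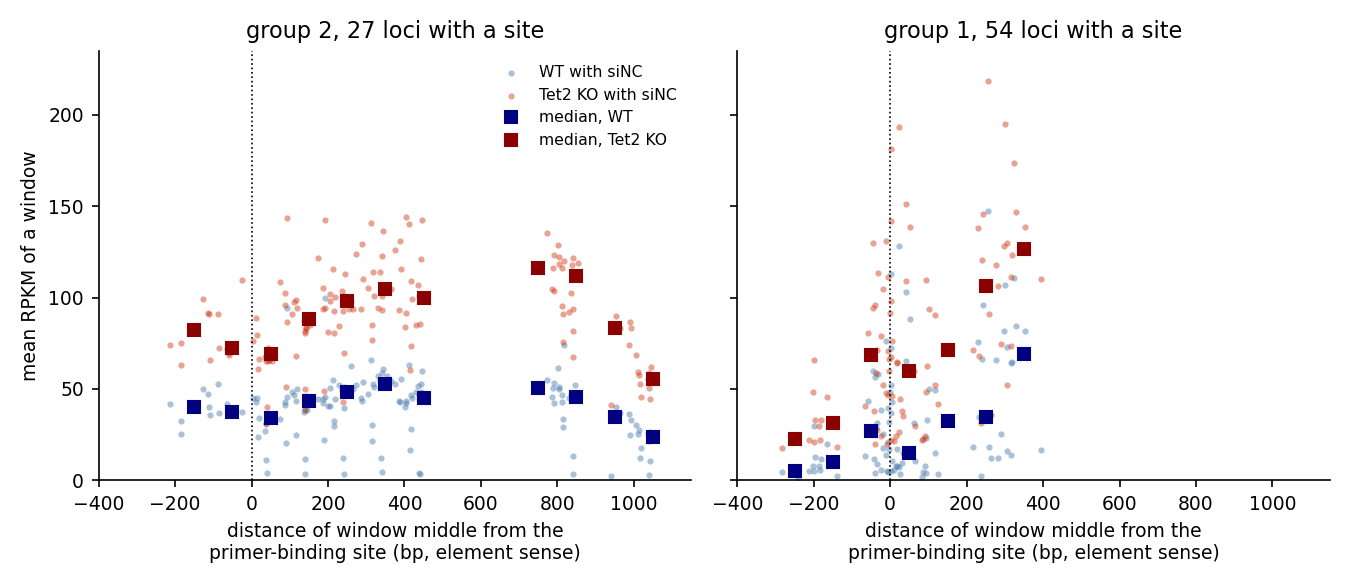
Mean RPKM of windows (points) against the distance of their middle from the primer-binding site in the sense of the element, for group 2 (left) and group 1 (right), in WT and Tet2 KO with siNC; squares are medians of 100-bp bins with at least 4 windows. In group 2 the Tet2 KO medians peak at 105 RPKM at 300 to 400 bp and 116 at 700 to 800 bp, with none of the chosen windows between 500 and 700 bp. In group 1 they reach 126 RPKM at 300 to 400 bp.

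A single copy of group 2, singled out after its values were seen, stood apart from its relatives. In an intron of Camk2b, a subunit of calcium/calmodulin-dependent kinase II, 8 windows at chr11:6006401-6007500 went from a mean of 3.49 to 59.1 RPKM (log2 fold change 4.04). Its first region, chr11:6006401-6006900, was at 4.68, 1.66 and 4.95 in WT and 73.5, 63.3 and 66.6 in Tet2 KO. Its other region, chr11:6007201-6007500, was at 3.76, 2.76 and 2.61 against 50.4, 45.5 and 37.9. The next copy of the group reached 1.99, and the median over the 34 loci was 1.08. At the other end, the copy in Gm4316 at chr8:123165501 went from 97.0 to 143 RPKM (log2 fold change 0.56).

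Group 1 was more diverse, with 92 regions at 68 loci on 10 chromosomes, a median identity of 93.9% and all 109 windows with at least 50% of bases soft-masked as repeats in the reference. A primer-binding site for tRNA-Phe was found at 54 loci. At 35 of them, 24 without a mismatch, its bases were shared by the ends of tRNA-Phe and tRNA-Ser, and at the other 19, 8 without a mismatch, they were those of tRNA-Phe alone. At 30 of the 54 loci the end of a tRNA-Ile also matched, at a median of 270.5 bp (198 to 366) downstream of the site, and at 7 further loci that end was the only match. RPM summed over the group were 362, 353 and 365 in WT and 804, 808 and 794 in Tet2 KO. The means of 361 ± 2.4 and 803 ± 2.52 (SD, n = 2) gave a ratio of 2.23, against 2.25 for group 2.

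Starting levels differed among the forms of the site. The 39 windows with the shared site without a mismatch went from a median of 34.8 RPKM in WT to 80.4 in Tet2 KO (log2 fold change 1.03), and the 18 with mismatches in it, at 11 loci, from 7.45 to 25.5 (1.90). With the site of tRNA-Phe alone, 12 windows without a mismatch went from 37.2 to 73.8 (1.07) and 23 with mismatches from 23.4 to 66.2 (1.14). The 2 kinds without a mismatch were thus at similar levels. In contrast to group 2, 90 of the 92 windows at these 54 loci lay within 500 bp of the site. Median RPKM was 9.78 in WT and 31.3 in Tet2 KO at 100 to 200 bp upstream, 27.0 and 68.4 in the 100 bp before the site, 15.1 and 60.1 in the 100 bp after it, and 69.0 and 126 at 300 to 400 bp downstream. Among the chosen windows it was thus highest far downstream, without a steady rise. The median log2 fold change was 1.69 in the first of these places and 0.85 in the last.

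Among the windows of group 1 whose sequence occurs once, 2 were named for a low fold change. The window at chr8:15573601-15573700, between genes, was at 121, 111 and 106 RPKM in WT and 170, 181 and 193 in Tet2 KO (log2 fold change 0.68). The window at chr8:69382201-69382300 in Gm10033 was at 92.8, 92.6 and 103 against 145, 143 and 149 (0.60). Both were high in all 6 libraries and still did not overlap. Singled out after their values were seen, the 2 loci of group 1 with the highest fold changes were the following. The one in an intron of Fto at chr8:91431301, with 2 copies in the genome, went from 1.81 to 25.7 RPKM (3.76), and the intergenic one of 3 windows at chr11:37482201-37482700 from 8.23 to 110 (3.73). The first window of the latter, whose sequence occurs once, went from 4.55 to 111 RPKM (4.58), so windows of group 1 occurring once had both low and high fold changes.

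**Figure D3:**
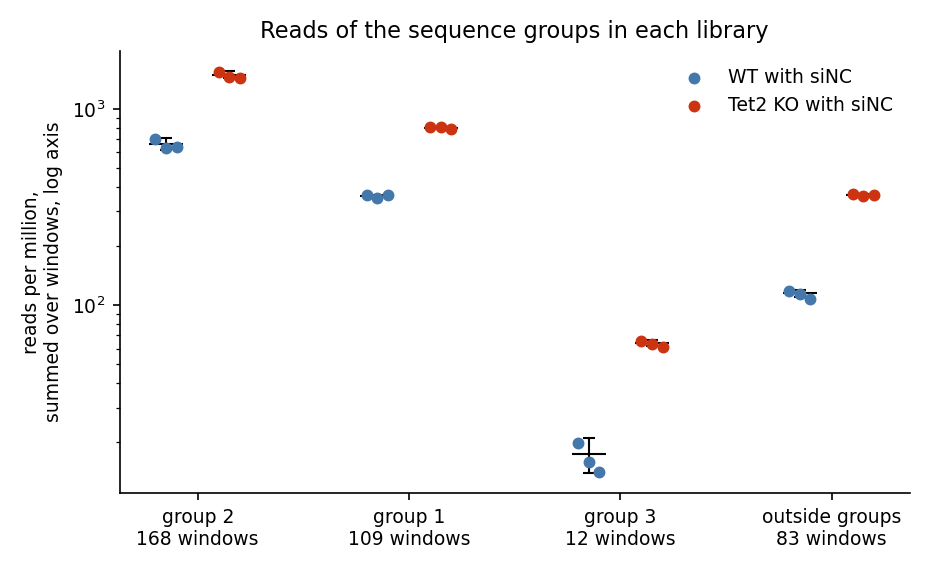
Reads per 1000000 library reads (RPM) summed over the windows of group 2, group 1, group 3 and the windows outside the groups, on a log axis; each point is 1 library with siNC, WT in blue and Tet2 KO in red, and bars give the mean and SD with replicates 2 and 3 as 1 sample (n = 2). In each of the 4 sets all Tet2 KO libraries lie above all WT libraries, by ratios of 2.23 to 3.67.

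The remaining groups were small. The windows of group 3 lay close together, with 12 windows at 6 loci within chr6:47749101-47772800, none with 50% or more of its bases soft-masked. Each had 7 to 17 copies in the genome, whose places were not examined. For group 3 the libraries held 19.9, 15.8 and 14.1 RPM in WT and 65.6, 63.4 and 60.95 in Tet2 KO, a ratio of 3.67. Groups 4 to 9 held 3 to 10 windows each, with ratios of 2.80 to 6.02. The ratio of 6.02 belonged to group 5, with 7 windows at 3 loci on 3 chromosomes, of which 2 lay in genes. A tRNA-Lys site was found at both loci of group 7, with 0 mismatches on chromosome 17 and 2 on chromosome 6. At both loci of group 9 a tRNA-Gly site was found with 1 mismatch.

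The 83 windows outside the groups formed 67 regions at 61 loci, of which 46 lay in a gene. Of these windows 54 occurred at a single place in the genome. Their medians were 6.70 RPKM in WT and 27.6 in Tet2 KO, lower than in groups 1 and 2, and their median log2 fold change was 2.15, against 1.53 and 1.15. Summed RPM were 118, 114 and 108 in WT and 366, 360 and 363 in Tet2 KO, with means of 115 ± 5.05 and 364 ± 3.55 (SD, n = 2) and a ratio of 3.17. All 14 regions in coding exons were among these 67 regions (20.9%), with 28 in introns (41.8%), 16 between genes (23.9%) and the rest in other exons.

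Regions within 1 kb of an annotated start of a protein-coding gene numbered 7 of 278, all outside the groups. Starts of all annotated transcripts were counted, so such a start can lie inside the gene. The highest gain was in the first of 2 windows in an intron of Catsperg1, which encodes a subunit of the sperm calcium channel CatSper. At chr7:29212901-29213000, 982 bp from an annotated start, it went from 0.87, 3.76 and 0.65 RPKM to 85.2, 66.1 and 64.2. The WT values were 1, 5 and 1 reads. The log2 fold change of 5.27, the highest of the 409 windows, therefore rests on few WT reads. The window 400 bp on, at chr7:29213301-29213400, went from 6.94, 6.02 and 14.3 to 53.8, 83.2 and 86.1 (3.02). Both have 2 copies in the genome, and 17 other listed windows higher in Tet2 KO lay within 1 kb of the first.

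Transcription factor genes were among the other starts. In the coding exon of Klf3, a zinc-finger repressor, the window at chr5:64822201-64822300 lay 48 bp from an annotated start and went from 13.01, 12.8 and 7.16 to 28.0, 28.4 and 33.2 RPKM (log2 fold change 1.43). In an intron of Foxm1, a forkhead factor that drives mitotic genes, chr6:128369901-128370000 went from 1.73, 3.01 and 2.61 to 20.2, 19.9 and 23.3 (3.06). Its 13 CpG sites lie largely in the run of CG and TG printed above, 461 bp from an annotated start. All 3 Tet2 KO libraries were clear of WT at both genes, with differences in mean RPKM of 18.9 at Klf3 and 18.7 at Foxm1, and the fold change was larger at Foxm1, where WT was nearly empty.

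Near an annotated start of Atf7ip, a partner of the histone methyltransferase SETDB1, lies the region chr6:136519001-136519200, with 19 CpG sites. It went from 1.73, 3.38 and 2.28 to 23.5, 12.8 and 20.5 RPKM (2.89). It overlaps an exon of the non-coding gene Gm44140. The window at chr8:46000201-46000300, in introns of Ankrd37 and Lrp2bp and 334 bp from a start, went from 1.73, 0.75 and 2.61 to 15.7, 12.1 and 14.8 (2.99). In the coding exon of Son, a nuclear speckle protein needed for splicing, chr16:91660301-91660400 went from 2.60, 4.52 and 5.21 to 21.3, 17.8 and 13.4 (2.06). Tet2 KO values in these 3 regions stayed below 24 RPKM, well under the median of all 409 windows.

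Of all 43453 annotated genes on the 16 chromosomes, 135 (0.311%) had a region within 5 kb, and of the 18171 protein-coding ones 79 (0.435%). Of the 6 gene lists examined, only 1 gene had one. This was Zfp42, also known as Rex1, a zinc-finger marker of pluripotent cells, which was on the lists of germline genes (24 genes on the 16 chromosomes) and of pluripotency and germ layer regulators (26). Its coding exon held 2 regions, about 11 kb from the nearest annotated start. At chr8:43295701-43295900 the signal went from 7.81, 10.9 and 4.88 to 31.9, 31.6 and 24.3 RPKM (1.88), and at chr8:43296001-43296100 from 1.73, 4.52 and 1.95 to 15.7, 19.9 and 17.6 (2.65). None of the 41 imprinted genes, 25 methylation enzymes and readers, 58 homeobox and developmental genes or 57 clustered protocadherins on these chromosomes had one. A gene without a region here may still have changed below the listing threshold.

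Among regions whose sequence occurs once, the 6 with the highest fold started near zero. The highest was intergenic, chr6:143107401-143107600, 7260 bp from the start of C2cd5, with 1.73, 3.76 and 0.00 RPKM in WT and 12.9, 26.3 and 21.2 in Tet2 KO (3.39). In an intron of Sh3rf1, a ubiquitin ligase and JNK scaffold, chr8:61243101-61243200 went from 3.47, 0.75 and 0.65 to 13.5, 14.9 and 18.3 (3.18). In an intron of Jak3, the cytokine receptor kinase, chr8:71686401-71686500 went from 2.60, 1.51 and 3.91 to 24.7, 22.8 and 24.0 (3.11). The window with 15 CpG sites at chr8:85112001-85112100, in Zfp791 and the miRNA gene Gm23388, went from 0.87, 3.76 and 0.65 to 20.2, 11.4 and 14.8 (3.06). The other 2 lay in the pseudogene Gm12058 within B3gnt2 (3.24) and between genes on chromosome 4 (3.13).

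The 4 with the lowest fold all had high signal in WT. Besides the 2 copies of group 1 given above, these were a group 2 copy at chr4:15237201-15237300, which went from 46.8, 48.9 and 50.8 to 86.3, 73.2 and 86.8 (0.75), and a coding exon of Evpl, the gene of envoplakin of the cornified envelope. The Evpl window, chr11:116223501-116223600, went from 79.8, 64.0 and 67.1 to 108, 114 and 111 RPKM (0.66). Single-copy sequence was found at both ends of the range of WT signal.

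The places of the windows in the genome differed from those of all CpG-dense windows of the reference, which were not filtered for signal. Of all 205278 reference windows with at least 6 CpG sites on the 16 chromosomes, 47.3% lay within 1 kb of an annotated transcription start, and 42.9% within 1 kb of a protein-coding one. Of the 409 windows these shares were 11% and 1.96%, and of the 83 outside the groups 19.3% and 9.64%. The 2408 CpG-dense windows that were lower in Tet2 KO were at 15.6% and 6.60%, so few of them lay at starts either. Soft-masked bases made up at least 50% of the window in 72.4% of the 409 windows, 25.3% of those outside the groups, 78.2% of the CpG-dense lower windows and 26.9% of the reference windows. These shares were not tested, since windows are not replicates. The 409 windows also had to hold WT reads and to be listed, which leaves out unmethylated starts in advance. The comparison with the reference windows is therefore not like for like, while the CpG-dense lower windows had been listed too.

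By base composition many windows resembled CpG islands without lying at gene starts. The 500 bp of sequence centred on each window were examined for a GC content of at least 50% and an observed to expected CpG ratio of at least 0.6. Both were met at 66.7% of the 409 windows, 88.1% of group 2, 51.4% of group 1 and 39.8% of those outside the groups. The share was 22.8% for the CpG-poor windows higher in Tet2 KO 60.5% for the CpG-dense lower windows and 50.5% for the reference windows. The letters CGCG, searched on both strands, were found in 67.0% of group 1, 32.7% of group 2, 50.4% of the CpG-dense lower windows and 47.6% of reference windows. The letters GGGCGG, the core of the motif of SP and KLF factors, were in 28.6% of group 2, 1.83% of group 1, 5.02% of the CpG-dense lower windows and 21.4% of reference windows. The E-box CACGTG was in no window of groups 1 or 2 and in 4.82% of those outside, against 3.72% of reference windows. A match is a description of the letters only.

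The windows were spread unevenly over chromosomes, in a pattern picked out after it was seen. Chromosomes 6, 8 and 11 held 181 windows (44.3%) but 21.3% of the CpG-dense reference windows, which is 4.15 per 1000 against 1.41 on the other 13. The windows outside the groups were at 0.963 per 1000 on these 3 chromosomes and 0.254 on the others, but not chromosome by chromosome, since chromosome 11 was at 0.595 and chromosome 13, one of the others, at 0.758. The same chromosomes had a larger share of higher windows among all those listed, 39.7% against 17.6%. This too did not hold for each of them, with 61.4% on chromosome 11 but 30.7% on chromosome 6, against 34.3% on chromosome 5 and 30.4% on chromosome 7. Copy number of these chromosomes and 5mC cannot be told apart here, without input libraries.

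**Figure D4:**
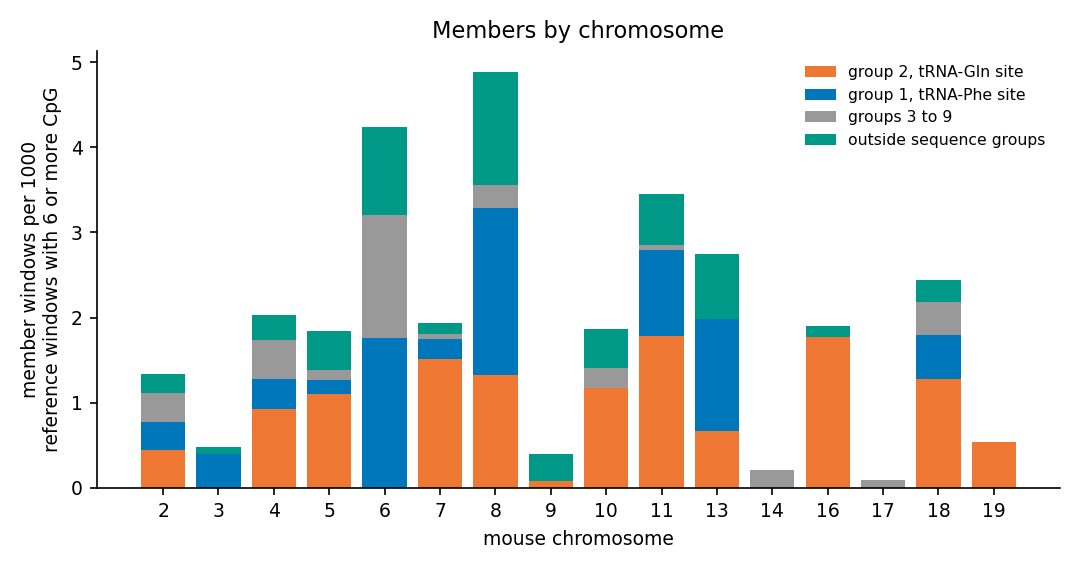
Windows per 1000 reference windows with at least 6 CpG sites on each of the 16 chromosomes, stacked by sequence group. Chromosome 8 has the tallest bar with 4.89 per 1000, followed by chromosome 6 with 4.24 and chromosome 11 with 3.45, while chromosome 17 has 0.09.

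Most regions did not stand alone. Another listed window higher in Tet2 KO lay within 1 kb of 249 of the 278 regions (89.6%), with a median of 4 such windows, and of 52 of the 67 regions outside the groups (77.6%). Of the 514 regions of CpG-poor higher windows, 375 (72.96%) had such a neighbour. A listed window lower in Tet2 KO lay within 1 kb of 1 of the 278 regions and of 1 of the 514. Within 10 kb the shares were 11 of 278 (3.96%) and 30 of 514 (5.84%). One of the 11 regions, chr6:50609601 in the pseudogene Gm4782, had 10 of them.

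The comparison of siNsun2 with siNC in Tet2 KO cells set knockdown of Nsun2 against its control in the absence of Tet2. Its table held 244 windows, of which 7 were among the 409 (1.71%) and 33 among the 2414 higher windows (1.37%), and all 7 were lower with siNsun2. The test was edgeR's quasi-likelihood test with Benjamini-Hochberg adjustment over the 244 windows, which called all 244, 165 of them, or 67.6 percent, lower and 79 higher. The 244 were listed for differing between these libraries, and the siNC libraries are the ones that chose the 409 windows for being high, so the calls say nothing particular about the 7 and their values are given as a description. At the 7 windows all 3 siNsun2 libraries lay below all 3 siNC libraries of the Tet2 KO cells, as at each of the 165 lower windows of the table.

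The 2 single-copy windows of the 7 lay in genes. In an intron of Bcat1, the cytosolic branched-chain aminotransferase, chr6:145004501-145004600 was at 35.6, 35.4 and 39.1 RPKM in WT with siNC, at 108, 111 and 119 in Tet2 KO with siNC and at 68.4, 60.7 and 59.7 in Tet2 KO with siNsun2. The log2 fold change with siNsun2 was -0.85. In a coding exon of Zfhx3, a zinc-finger homeobox factor, chr8:108948501-108948600 was at 63.3, 55.7 and 66.4, then at 99.8, 120 and 97.4, and with siNsun2 at 55.8, 60.0 and 49.3 (log2 fold change -0.95). With siNsun2 the Bcat1 window remained above all WT libraries, while the Zfhx3 window overlapped them.

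The other 5 belonged to group 1, and their log2 fold changes with siNsun2 were -0.62 to -0.95. In an intron of Slc7a2, a transporter of cationic amino acids, chr8:40883701-40883800 was at 33.0, 42.9 and 46.9 in WT, 88.5, 81.8 and 74.1 in Tet2 KO with siNC and 44.1, 45 and 35.8 with siNsun2. The intergenic window chr11:31598701-31598800 was at 108, 108 and 104, then 205, 194 and 186, then 108, 109 and 119. Over the 7 windows, in RPKM on library totals, the siNsun2 libraries overlapped the range of WT with siNC at 5. They lay below it at 1, on chromosome 18, and above it at 1, that of Bcat1. The same was not counted over the other windows on both lists, so it describes the 7 only and holds for this scaling only. The calls depended on the scaling of the libraries. With TMM factors over the 244 windows, which moved their median log2 fold change from -0.68 to -0.09, 79 were called higher and 84 lower, among them 5 of the 7. With DESeq2's size factors 80 were higher and 17 lower, with none of the 7. The median log2 fold change of the 7 was -0.85 with library totals, -0.26 with TMM factors and -0.21 with DESeq2's size factors.

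**Figure D5:**
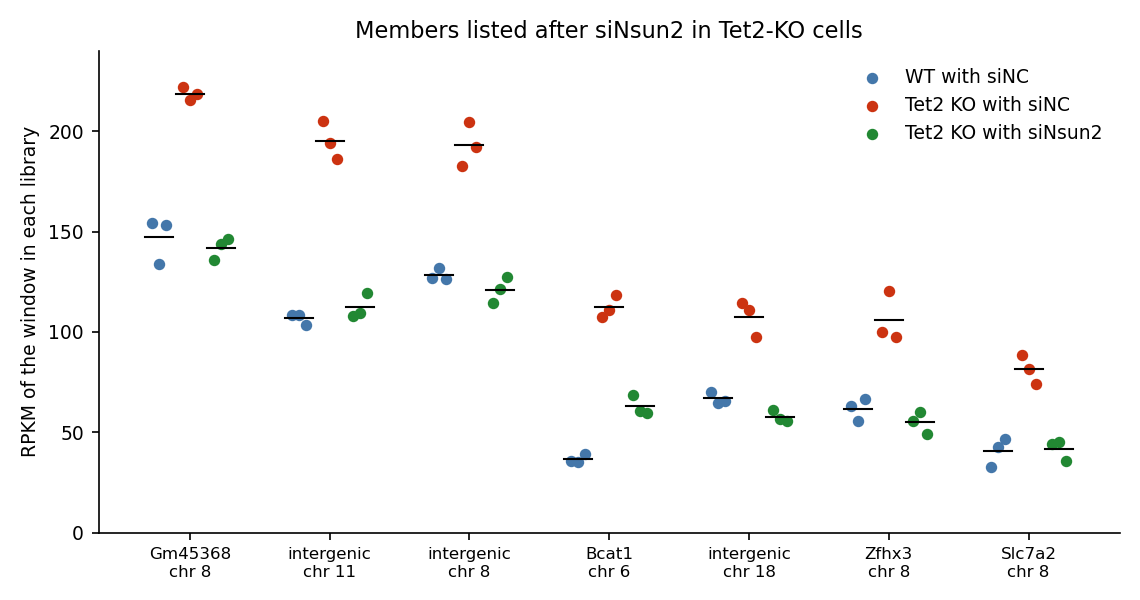
RPKM of the 7 windows in each library of WT with siNC (blue), Tet2 KO with siNC (red) and Tet2 KO with siNsun2 (green), with the mean as a bar, ordered by the Tet2 KO siNC mean. The green points lie below the red ones at all 7, and only at Bcat1 do they lie above all blue ones.

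None of the 409 windows lay within 10 kb of the 31 windows listed for siNsun2 in WT cells, although 22 of the 2414 higher windows (0.911%) and of all 14279 (0.154%) were rows of that table. In the Pspc1 experiment, an independent set of libraries on the loss of the RNA-binding paraspeckle protein PSPC1, 2 of the 409 (0.489%) were among 307 listed windows, as were 11 of the 2414 higher windows (0.456%) and 171 of all 14279 (1.20%). The Bcat1 window was at 117, 118 and 113 RPKM in Pspc1 KO and 51.1, 55.8 and 60.0 in WT (log2 fold change 1.06), and its 6 input libraries were at 0.00 to 4.63. The window in Gm4782, chr6:50609601-50609700, was at 203, 210 and 211 in Pspc1 KO and 162, 159 and 173 in WT (0.34), with inputs of 0.88 to 1.90. In the Tet2 libraries the latter was at 104, 106 and 93.8 in WT and 152, 155 and 164 in Tet2 KO. At both windows every input library lay far below every IP library. The differences between genotypes were not tested, since the 307 windows were listed for differing between these libraries.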

How the data were processed

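MeDIP-seq libraries were trimmed with Trimmomatic 0.39 and aligned with Bowtie2 2.4.1 to mm10, per the submitters' processing notes. The authors removed duplicates with Picard and counted reads in 100-bp windows with MEDIPS, and the deposited tables list only windows with an adjusted p-value under 0.1. They hold, for each library, raw read counts, RPKM (computed by the authors) and a relative methylation score, a fraction from 0 to 1 corrected for CpG density. The authors' own fold change, ratio and p-value columns were not used as results, except that the deposited raw and adjusted p-values gave the number of windows tested. Library totals were recovered from counts and RPKM. Of columns of other samples, 0 were found.

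Members were chosen by the rule in the report and merged into regions where windows touched. Members, gene lists and the rule for named regions were chosen with earlier results of these data known. Named were the 8 regions with the most windows, the 6 highest and 4 lowest fold changes among single-copy regions, the regions within 1 kb of a protein-coding start (at most 12) and those within 5 kb of a listed gene. Fold changes used log2 of mean RPKM plus 0.1. Windows were aligned with BLAST 2.17.0 (at least 70 bp, e-value at most 1e-10), and copy number is the count of exact matches of the middle 32 bases in the reference. Genes came from GENCODE M21, and starts are those of all its annotated transcripts. Primer-binding sites were TGG followed by the complement of the last 15 bases of an annotated tRNA, with up to 2 mismatches, searched to 500 bp around a locus. Where tRNA-Phe and tRNA-Ile ends both matched, the tRNA-Phe match, which lay upstream, was used. For siNsun2, edgeR 4.0.16 (quasi-likelihood) was run on the raw counts of all listed windows with the recovered totals, after it was tested on simulated data, and DESeq2 1.42.0 was an alternative. Same-numbered siNsun2 and siNC libraries deviated together (correlations 0.176, 0.129 and 0.119), and a replicate block changed no call. Those of Tet2 KO and WT did not (0.03, -0.01 and 0.00).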

Additional observations from a re-analysis of the deposited data

How the results depend on the processing

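The count of 409 windows became 212 with at least 8 CpG sites, 79 with single-copy windows and 83 outside the sequence groups. Leaving out a library for the direction alone could not change it (409), since no window overlapped between groups, and with the read limits also set on the other 2 WT libraries it was 396 to 406. The median log2 fold change of 1.39 became 3.29 with TMM factors over the listed windows, 2.11 for single-copy windows, 2.15 outside the groups, 1.22 where every WT count was above 3 and 1.53 per region. It was 1.41 with the replicate block and 1.35 to 1.44 without 1 library. The share of regions near a start, 10.8%, became 6.47% at 500 bp, 30.6% at 5 kb, 2.52% for protein-coding genes, 18.97% for single-copy regions and 22.4% outside the groups. The soft-masked share of regions, 68.7%, became 75.5% at a minimum of 25% of bases, 59.0% at 75%, 27.6% for single-copy regions and 29.9% outside the groups. For siNsun2, all 7 windows were called lower with the replicate block, with replicates 2 and 3 summed and without any 1 library (7 to 7), but 0 with DESeq2, where chr8:37342601 was at a log2 fold change of 0.0216. TMM and DESeq2 centre on rows that had been listed for differing, which is how these alternatives are built. The settings outside the groups, with replicates summed and with the read limits on 2 WT libraries were chosen after seeing the data. The cause of the other changes was not tested.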
